A study of Homo sapiens with 21 samples.

Results

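The genes described here are 32 human genes of the SREBP pathway, in which cells make sterols and fatty acids, taken from the deposited table of estimated read counts by matching their Ensembl identifiers to gene symbols. They are 18 genes of sterol synthesis from acetoacetyl-CoA to cholesterol, 8 genes of fatty acid synthesis, elongation and desaturation, and 6 further genes, namely SREBF1, SREBF2, SCAP, INSIG1, INSIG2 and STARD4. Each symbol matched 1 row of the 60671 in the table. OCI-AML3, a human acute myeloid leukaemia line, was sampled without treatment at 0 h, after 4 h and 24 h in DMSO (the solvent), and after 4 h and 24 h in 1 µg/mL tunicamycin. HEK293T, a human embryonic kidney line that carries the SV40 large T antigen, was sampled after 24 h in DMSO or 1 µg/mL tunicamycin. There were 7 groups of 3 libraries each, 21 in all. The lines were kept in different media, RPMI for OCI-AML3 and DMEM for HEK293T, and each is 1 line of its tissue, so that line and medium cannot be told apart. Nothing in the labels or methods says that the 3 replicates came from separate cultures, so p-values measure the spread between these libraries, which may be technical.

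The products of SREBF1 and SREBF2, the sterol regulatory element binding proteins, are transcription factors made as precursors in the membrane of the endoplasmic reticulum. SCAP binds them and senses sterol there, and INSIG1 and INSIG2 hold the complex back when sterol is plentiful. When sterol falls, SCAP carries the precursors to the Golgi, where they are cut and the freed domain enters the nucleus and binds its targets. SREBF2 acts mainly on sterol genes and SREBF1 mainly on fatty acid genes, with overlap, and both SREBF2 and INSIG1 are themselves targets. Tunicamycin blocks the first step of N-linked glycosylation and so leaves unfolded glycoproteins in the same organelle, which sets off the unfolded protein response that the study set out to follow.

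Levels are given as CPM, a gene's count scaled to its library's total, with totals adjusted by TMM (trimmed mean of M values), and were compared between libraries for 1 gene at a time, since CPM is not corrected for gene length. Library totals ran from 13838480 to 19961819 estimated counts, with a median of 16657733, and 3 counts corresponded to 0.137 to 0.231 CPM. Of the 32 genes, 31 passed the filter of at least 1 CPM in at least 8 libraries, as did 14012 genes in all. The exception was ELOVL6, a fatty acid elongase, which had 0 to 4 counts in each OCI-AML3 library. Labels were checked on other genes: HSPA5, the ER chaperone BiP, was higher in tunicamycin than in DMSO by 3.29, 3.53 and 2.7 on the log2 scale in OCI-AML3 at 4 h, at 24 h and in HEK293T. DDIT3, the stress factor CHOP, was higher by 5.36, 4.33 and 3.69 in the same comparisons. The leukocyte gene PTPRC averaged 263 to 431 CPM in the OCI-AML3 groups and was at 0 in HEK293T, while KRT18, an epithelial keratin, averaged 45.1 and 52.4 CPM in HEK293T and at most 1.81 CPM in OCI-AML3. The granule gene MPO was low in OCI-AML3, at 1.02 to 1.52 CPM. In bulk libraries such as these, fewer cells with a transcript and less of it per cell cannot be told apart.

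Promoter windows are shown for 5 genes that stood apart in the results: SREBF2, which codes for the main factor of the sterol genes, INSIG1 and MVK, which changed most at 24 h, STARD4, which changed most at 4 h, and HMGCS1, which makes HMG-CoA at the head of the pathway. Sequences are RefSeq windows on GRCh38.p14 of 300 bases, from 250 before to 50 after the annotated start, on the strand of the gene. Of the 32 genes, 28 matched such a window, and ACAT2, FASN, FDFT1 and SQLE did not. Both strands were searched for the letters TCACNCCAC, a sterol regulatory element (SRE), for CCAAT, the box bound by NF-Y, and for GGGCGG, the GC box bound by Sp1. Capitals mark the SRE and the CCAAT boxes, the latter reading ATTGG where they lie on the opposite strand, and no SRE overlapped a CCAAT box in these windows. Some genes have more than 1 start in the table, and a gene was counted if any of its windows held the letters. HMGCS1 has a second window (chr5:43313132-43313431) with no CCAAT box, and the one with boxes is shown.
SREBF2, chr22:41832855-41833154, plus strand: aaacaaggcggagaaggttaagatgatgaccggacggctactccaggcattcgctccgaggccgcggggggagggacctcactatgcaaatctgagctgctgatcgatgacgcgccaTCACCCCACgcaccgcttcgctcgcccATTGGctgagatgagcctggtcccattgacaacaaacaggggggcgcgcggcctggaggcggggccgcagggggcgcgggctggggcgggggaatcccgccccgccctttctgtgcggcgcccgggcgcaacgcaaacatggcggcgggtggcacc
INSIG1, chr7:155297628-155297927, plus strand: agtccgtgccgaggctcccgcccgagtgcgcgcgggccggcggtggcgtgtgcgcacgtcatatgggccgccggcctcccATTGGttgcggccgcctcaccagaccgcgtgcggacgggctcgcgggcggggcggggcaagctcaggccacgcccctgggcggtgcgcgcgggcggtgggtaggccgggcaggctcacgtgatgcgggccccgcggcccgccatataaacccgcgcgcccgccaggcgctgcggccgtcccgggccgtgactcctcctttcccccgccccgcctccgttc
MVK, chr12:109573544-109573843, plus strand: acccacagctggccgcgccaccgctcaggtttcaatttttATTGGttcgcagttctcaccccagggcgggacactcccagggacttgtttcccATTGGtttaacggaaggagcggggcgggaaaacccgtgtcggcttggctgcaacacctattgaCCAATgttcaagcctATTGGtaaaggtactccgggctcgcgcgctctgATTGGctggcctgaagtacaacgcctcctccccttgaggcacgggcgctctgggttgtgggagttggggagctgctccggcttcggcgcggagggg
STARD4, chr5:111512486-111512785, minus strand: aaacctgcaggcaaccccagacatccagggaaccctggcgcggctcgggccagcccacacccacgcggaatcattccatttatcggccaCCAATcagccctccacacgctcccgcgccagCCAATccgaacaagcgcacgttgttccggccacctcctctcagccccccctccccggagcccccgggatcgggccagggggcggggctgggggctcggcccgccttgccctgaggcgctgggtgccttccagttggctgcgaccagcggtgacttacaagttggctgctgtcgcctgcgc
HMGCS1, chr5:43313363-43313662, minus strand: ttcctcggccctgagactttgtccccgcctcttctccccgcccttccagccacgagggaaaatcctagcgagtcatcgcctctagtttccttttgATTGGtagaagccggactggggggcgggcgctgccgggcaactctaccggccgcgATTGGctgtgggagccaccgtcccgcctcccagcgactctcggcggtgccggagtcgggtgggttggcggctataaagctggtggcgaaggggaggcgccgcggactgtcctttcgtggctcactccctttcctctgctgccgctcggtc

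The SRE letters occurred in 1 of the 28 genes, SREBF2, where TCACCCCAC began 133 bases before the start, and in 1.39% of the 27305 genes with a window. CCAAT was present in 21 of the 28 genes (75.0%) against 39.7% of all genes with a window. Counted by window it was in 25 of 39 (64.1%) against 34.6%. By gene it was found in 13 of 15 sterol genes, 5 of 7 fatty acid genes and 3 of 6 of the others. The MVK window held 5 CCAAT boxes, at 210, 157, 94, 79 and 46 bases before the start, that of STARD4 and the HMGCS1 window shown held 2 each, and those of INSIG1 and SREBF2 held 1 each. GGGCGG occurred in 27 of the 28 genes (96.4%) against 48.3% of all genes. The genes with a window were not limited to those that passed the expression filter, and shares over the 14012 tested genes were not taken. These are matches of letters and not measured binding, and a window without a match says only that these letters are not in it.

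In OCI-AML3, 28 of 31 genes were higher at 24 h than at 4 h in DMSO, where 21% of all genes were. After 4 h of tunicamycin 12 of the 31 were above DMSO, against 18.5% of all genes. After 24 h of tunicamycin 27 were below the DMSO cells of that time, against 27.7% of all genes, and STARD4 was above. With a log2 fold change below -1 as well, 16 of the 31 were below, against 2.26% of all genes. The map of levels by library shows most genes of each set higher in the DMSO 24 h libraries, by unequal amounts, and shows that the tunicamycin 24 h libraries were close to the untreated cells for many genes. INSIG1, for example, was 4.44-fold higher at 24 h than at 4 h in DMSO, and 3.78-fold lower in tunicamycin than in DMSO at 24 h. In HEK293T none of the 31 genes changed by more than 1 on the log2 scale, where 1.58% of all genes rose and 0.55% fell that far.

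**Figure D1:**
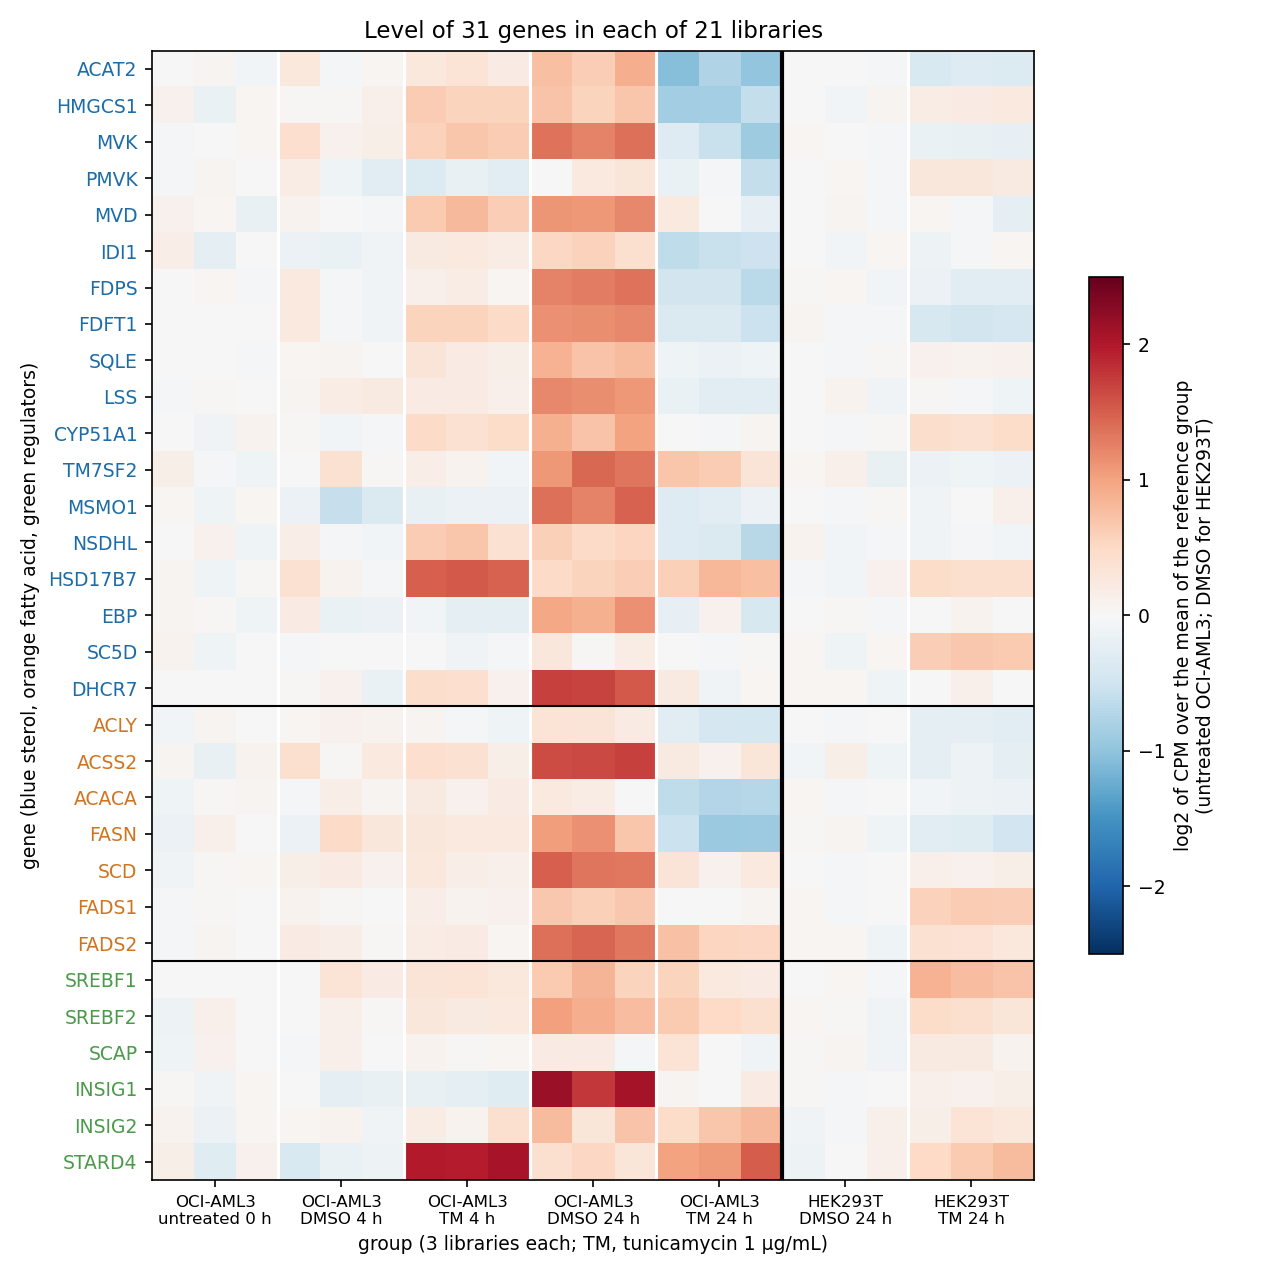
Level of each of 31 genes (rows) in each of 21 libraries (columns, 3 per group), as the log2 of its CPM over the mean CPM of the untreated group for OCI-AML3 and of the DMSO group for HEK293T, with sterol genes in blue, fatty acid genes in orange and the other genes in green letters. The DMSO 24 h columns are the reddest of OCI-AML3 for most genes, STARD4 and HSD17B7 are reddest in tunicamycin at 4 h, and the HEK293T columns are pale throughout.

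The first comparison asked whether the DMSO cells themselves changed between the sampling times. From 4 h to 24 h in DMSO, 28 of 31 genes rose and 0 fell (edgeR quasi-likelihood test, adjusted p at most 0.05), where 21% of all genes tested rose and 21.6% fell. No gene of the set fell at an unadjusted p of 0.05 either, nor by limma voom or DESeq2. The median log2 fold change was 0.76 over the set and -0.02 over all genes. With a log2 fold change above 1 as well, 12 of the 31 rose, against 3.48% of all genes. By group, 17 of 18 sterol genes rose (median 0.94), as did 6 of 7 fatty acid genes (median 0.74) and 5 of the other 6 (median 0.62). The 3 not called were PMVK at 0.25, ACACA at 0.07 and SCAP at 0.10. PMVK was called without DMSO 4 h replicate 1 (0.40, adjusted p = 0.0069), DMSO 24 h replicate 1 (0.34, adjusted p = 0.036) or tunicamycin 24 h replicate 3 (0.26, adjusted p = 0.035). Between 0 h and 4 h in DMSO, by contrast, 0 of 31 genes were called by edgeR, where 0% of all genes rose and 0% fell. At an unadjusted p of 0.05 there were 5 of the 31 and 1160 of all genes, and over all genes DESeq2 called 16 and limma voom 0. The call for SC5D in DMSO (log2 fold change 0.18 ± 0.073 (SE), adjusted p = 0.047) was lost when any 1 of 14 libraries was left out, and with limma voom (adjusted p = 0.066), library sizes without TMM (0.52), both other filters (0.34 and 0.053) and the compared groups alone (0.15).

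Tunicamycin for 4 h raised 12 of 31 genes and lowered 0, where 18.5% of all genes rose and 18.9% fell. No gene of the set fell at an unadjusted p of 0.05, by limma voom or by DESeq2. The genes that rose were 10 of the 18 sterol genes (HMGCS1, MVK, MVD, IDI1, FDFT1, SQLE, CYP51A1, NSDHL, HSD17B7 and DHCR7), SREBF2 and STARD4. None of the 7 fatty acid genes was called in either direction by edgeR, by limma voom or by DESeq2, or at an unadjusted p of 0.05, and their log2 fold changes lay between -0.10 and 0.11. The medians were 0.27 for sterol genes, 0.04 for fatty acid genes and -0.02 for all genes. STARD4 and HSD17B7 were the 2 with a log2 fold change above 1, a share of the set to be set beside 3.45% of all genes. The remaining 10 were smaller, from 0.19 for SQLE to 0.67 for MVD. The weakest, SREBF2 (adjusted p = 0.047), was lost when any 1 of 10 libraries was left out, with adjusted p up to 0.12 without tunicamycin 4 h replicate 1, and with DESeq2 size factors (0.056), no filter beyond 1 count (0.20), 1 CPM in 3 libraries (0.055) and library sizes without TMM (0.069). The SQLE call was lost without tunicamycin 4 h replicate 1 (0.14, adjusted p = 0.080) and with no filter beyond 1 count (0.16, adjusted p = 0.24).

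Against DMSO of the same time, 24 h of tunicamycin lowered 27 of 31 genes and raised 1, STARD4, where 27.7% of all genes fell and 23.5% rose. With a log2 fold change below -1 as well, 16 of 31 fell, against 2.26% of all genes. The median was -1.01 over the set and -0.01 over all genes. Sterol genes gave 17 of 18 lower, with a median of -1.13, and fatty acid genes 7 of 7 lower, with a median of -0.83. Among the other 6 genes, SREBF1, SREBF2 and INSIG1 fell, STARD4 rose, and SCAP (-0.04) and INSIG2 (0.05) were not called. The third uncalled gene was HSD17B7 (log2 fold change 0.18 ± 0.093 (SE), adjusted p = 0.11), which passed the threshold when any 1 of 7 libraries was left out, reaching 0.29 without tunicamycin 24 h replicate 1 (adjusted p = 0.020). This comparison and the rise in DMSO share the 3 DMSO 24 h libraries, so that a high value there enters both. The SC5D call (log2 fold change -0.18 ± 0.073 (SE), adjusted p = 0.043) was lost with limma voom (adjusted p = 0.065), DESeq2 (0.12), DESeq2 size factors (0.10), library sizes without TMM (0.30), both other filters (0.17 and 0.12) and the compared groups alone (0.23). It was also lost when single libraries were left out, with a value of -0.076 without DMSO 24 h replicate 1 (adjusted p = 0.44). Other calls lost when a library was left out were those of PMVK without tunicamycin 24 h replicate 3 (-0.26, adjusted p = 0.061) and SREBF1 without DMSO 24 h replicate 2 (-0.21, adjusted p = 0.076) or tunicamycin 24 h replicate 3 (-0.24, adjusted p = 0.053).

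A comparison with the untreated cells, added after the data were seen, sets aside the DMSO 24 h libraries. Tunicamycin at 24 h was above the untreated cells for 8 of 31 genes and below them for 12, where 28.4% of all genes were above and 31.6% below, so that the set's shares lay near those of all genes. The median was -0.01, and no gene was lower by a log2 fold change of 1 or more. DMSO at 24 h was above the untreated cells for 27 of 31, against 21.4% of all genes, with a median of 0.87. The genes below the start were ACAT2 (-0.93), HMGCS1 (-0.77), MVK, IDI1, FDPS, FDFT1, NSDHL, LSS and MSMO1 of sterol synthesis, and FASN (-0.78), ACACA (-0.69) and ACLY of fatty acid synthesis. Calls of LSS (-0.24) and MSMO1 (-0.24) were lost when single libraries were left out, with values of -0.15 for LSS without tunicamycin 24 h replicate 2 and -0.14 for MSMO1 without tunicamycin 24 h replicate 1. The MSMO1 call was also lost with DESeq2 (adjusted p = 0.11), DESeq2 size factors (0.11), 1 CPM in 3 libraries (0.080) and the compared groups alone (0.064), and that of SCD, above the start, with no filter beyond 1 count (0.076). Above the start were STARD4 (1.21), HSD17B7 (0.73), INSIG2, FADS2, TM7SF2, SREBF2, SREBF1 and SCD. The other 11 were not called, among them INSIG1 (0.09 ± 0.083, SE), MVD (0.02) and CYP51A1 (0.00). Within tunicamycin, from 4 h to 24 h, 17 of 31 genes fell and 5 rose, where 32% of all genes fell and 27.2% rose.

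**Figure D2:**
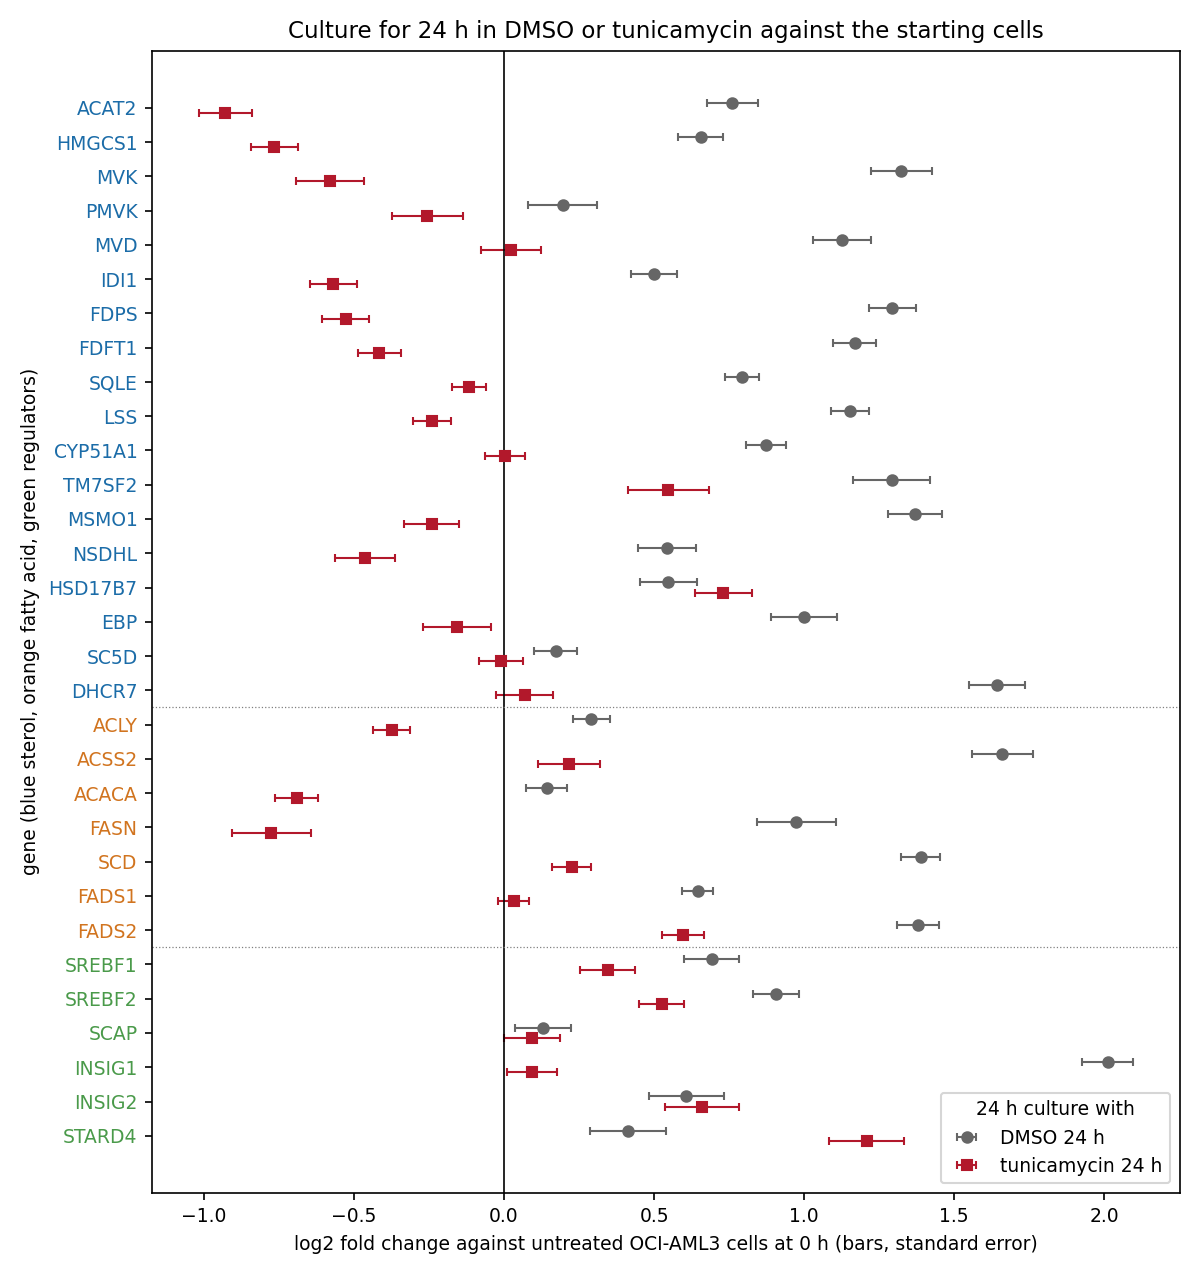
Log2 fold change of each gene against untreated OCI-AML3 cells at 0 h, after 24 h in DMSO (grey circles) or 24 h in tunicamycin (red squares). Bars show the standard error from the fit of all 21 libraries, 3 a group. All 31 DMSO values lie above 0, whereas 15 tunicamycin values lie above and 16 below it, and STARD4, INSIG2 and HSD17B7 have their tunicamycin value to the right of the DMSO value.

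The pathway begins where acetyl-CoA units are joined. ACAT2, the cytosolic thiolase, was at 86.1, 90.2 and 82.8 CPM at 0 h, 104, 84.3 and 88.8 after 4 h in DMSO and 145, 133 and 161 after 24 h in DMSO. In tunicamycin it was at 103, 109 and 98.9 at 4 h and at 41.1, 51.5 and 43.5 at 24 h, so that all 3 late tunicamycin libraries lay below every other OCI-AML3 library. It changed at 24 h (log2 fold change -1.69 ± 0.088 (SE), adjusted p = 6.7e-13) and was not called at 4 h (log2 fold change 0.17 ± 0.085 (SE), adjusted p = 0.13), although it was without DMSO 4 h replicate 1 (0.28, adjusted p = 0.014). HMGCS1, which makes HMG-CoA, was at 122, 102 and 118 CPM at 0 h and at 117, 117 and 124 and 188, 168 and 184 in DMSO at 4 h and 24 h. Tunicamycin took it to 176, 168 and 168 at 4 h, above all DMSO 4 h libraries (log2 fold change 0.52 ± 0.075 (SE), adjusted p = 8.9e-06), and to 62.8, 63.1 and 75.3 at 24 h, below all others (log2 fold change -1.42 ± 0.077 (SE), adjusted p = 1.3e-12). The gene thus reached at 4 h of tunicamycin a level that DMSO cells had at 24 h.

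The mevalonate enzymes followed. MVK, mevalonate kinase, stood at 16.4, 17.1 and 17.7 CPM in untreated cells, 23.0, 18.3 and 18.9 in DMSO at 4 h and 43.9, 40.2 and 44.2 in DMSO at 24 h. Its tunicamycin values were 25.4, 27.5 and 26.6 at 4 h and 13.7, 11.6 and 9.20 at 24 h, without overlap with DMSO at either time. It rose at 4 h (log2 fold change 0.40 ± 0.103 (SE), adjusted p = 0.0035) and fell 3.74-fold at 24 h (log2 fold change -1.90 ± 0.108 (SE), adjusted p = 2.7e-12). PMVK, the next kinase, changed less, from 58.5 ± 6.32 CPM (SD, n = 3) in DMSO to 43.0 ± 8.01 in tunicamycin at 24 h (log2 fold change -0.45 ± 0.117 (SE), adjusted p = 0.0028). MVD, the decarboxylase that makes isopentenyl diphosphate, was at 48.3, 46.5 and 39.3 CPM at 0 h, 47.7, 44.4 and 43.6 and 95.6, 94.8 and 102 in DMSO at 4 h and 24 h, and 69.8, 78.3 and 68.2 and 52.8, 45.1 and 38.6 in tunicamycin at those times. Its late tunicamycin libraries overlapped the untreated ones. It rose at 4 h (log2 fold change 0.67 ± 0.098 (SE), adjusted p = 8.7e-06) and fell at 24 h (log2 fold change -1.10 ± 0.098 (SE), adjusted p = 5.5e-09). IDI1, the isomerase of isopentenyl diphosphate, was at 101.1, 100.4 and 106 CPM in DMSO and 132, 133 and 128 in tunicamycin at 4 h (log2 fold change 0.36 ± 0.077 (SE), adjusted p = 0.00083). At 24 h it was at 162, 167 and 149 in DMSO and 72.2, 76.1 and 79.0 in tunicamycin (log2 fold change -1.07 ± 0.079 (SE), adjusted p = 2.5e-10), and the untreated libraries, at 127, 96.9 and 114, lay between.

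FDPS, farnesyl diphosphate synthase, was not called at 4 h, with 359, 297 and 287 CPM in DMSO and 333, 345 and 317 in tunicamycin (log2 fold change 0.08 ± 0.077 (SE), adjusted p = 0.46), but was without DMSO 4 h replicate 1 (0.20, adjusted p = 0.032). At 24 h it was at 721, 736 and 787 in DMSO and 221, 223 and 191 in tunicamycin, the latter below the untreated 307, 315 and 294. It thus rose in DMSO (log2 fold change 1.25 ± 0.078 (SE), adjusted p = 3.5e-11) and fell against it in tunicamycin (log2 fold change -1.82 ± 0.079 (SE), adjusted p = 2.6e-14). FDFT1, squalene synthase, which commits the chain to sterol, was at 218, 215 and 214 CPM at 0 h, 256, 208 and 203 in DMSO and 318, 316 and 299 in tunicamycin at 4 h, and 477, 479.9 and 495 and 168, 167 and 149 at 24 h. Every tunicamycin library lay above DMSO at 4 h (log2 fold change 0.48 ± 0.071 (SE), adjusted p = 1e-05) and below it at 24 h (log2 fold change -1.58 ± 0.073 (SE), adjusted p = 6.6e-14). SQLE, the squalene epoxidase, and LSS, the cyclase that makes lanosterol, fell by 0.91 and 1.39 on the log2 scale at 24 h, and SQLE rose slightly at 4 h (log2 fold change 0.19 ± 0.057 (SE), adjusted p = 0.01).

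Of the enzymes that turn lanosterol into cholesterol, CYP51A1, the first demethylase, rose at 4 h (log2 fold change 0.46 ± 0.067 (SE), adjusted p = 8.5e-06) and fell at 24 h (log2 fold change -0.87 ± 0.067 (SE), adjusted p = 5.6e-10). MSMO1, the C4 methyl oxidase, had one of the larger DMSO rises, from 35.0, 25.8 and 29.9 CPM at 4 h to 100.5, 91.4 and 108 at 24 h (log2 fold change 1.72 ± 0.091 (SE), adjusted p = 2e-12), with the untreated libraries at 40.1, 35.9 and 39.7. In tunicamycin it was at 33.7, 35.0 and 34.8 at 4 h (log2 fold change 0.19 ± 0.093 (SE), adjusted p = 0.12, and 0.32 with an adjusted p of 0.0083 without DMSO 4 h replicate 1) and 30.9, 32.2 and 34.7 at 24 h, so that the fall against DMSO at 24 h (log2 fold change -1.61 ± 0.091 (SE), adjusted p = 2.4e-12) stood beside a change of -0.08 within tunicamycin (adjusted p = 0.48). NSDHL, which works with it, was at 35.6, 31.2 and 30.6 CPM in DMSO and 49.8, 51.8 and 41.5 in tunicamycin at 4 h (log2 fold change 0.56 ± 0.097 (SE), adjusted p = 8e-05). The 24 h values were 48.4, 44.5 and 46.5 in DMSO and 25.4, 24.7 and 19.6 in tunicamycin (log2 fold change -1.01 ± 0.1 (SE), adjusted p = 3.2e-08), against 31.9, 34.4 and 29.4 at 0 h. HSD17B7, the keto-reductase of the same step, departed from this pattern: it averaged 17.8 ± 2.63 CPM (SD, n = 3) in DMSO and 45.2 ± 0.794 in tunicamycin at 4 h, a 2.55-fold rise (log2 fold change 1.35 ± 0.092 (SE), adjusted p = 7.1e-11). At 24 h it averaged 23.4 ± 1.21 and 26.6 ± 2.04. Its pseudogene HSD17B7P2 was at a mean of 0.694 CPM in DMSO and 2.79 CPM in tunicamycin at 4 h, and how reads were split between the copies was not tested.

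DHCR7, the last reductase of the Kandutsch-Russell route, was at 38.7, 39.5 and 38.8 CPM at 0 h and 39.6, 41.8 and 34.8 after 4 h of DMSO, and rose to 127, 126 and 112 by 24 h (log2 fold change 1.65 ± 0.093 (SE), adjusted p = 5.8e-12). In tunicamycin it was at 53.0, 52.5 and 42.0 at 4 h (log2 fold change 0.35 ± 0.094 (SE), adjusted p = 0.0056) and 45.6, 36.8 and 40.4 at 24 h (log2 fold change -1.57 ± 0.093 (SE), adjusted p = 5.7e-12). The late tunicamycin values overlapped those at 0 h. EBP, the sterol isomerase, fell at 24 h (-1.16) and TM7SF2, a C14 sterol reductase like the lamin B receptor, fell by 0.74. SC5D, the desaturase before DHCR7, moved least of the sterol genes in OCI-AML3, from -0.03 at 4 h to -0.18 at 24 h.

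Fatty acid synthesis starts from citrate and acetate. ACLY, which makes cytosolic acetyl-CoA from citrate, fell at 24 h (log2 fold change -0.67 ± 0.062 (SE), adjusted p = 1.2e-08) after a small DMSO rise (0.21), whose call was lost with no filter beyond 1 count (0.19, adjusted p = 0.087), the compared groups alone (0.22, adjusted p = 0.053) and library sizes without TMM (0.09, adjusted p = 0.22). ACSS2, which makes it from acetate, was at 21.6, 18.2 and 21.9 CPM at 0 h, 27.3, 20.9 and 24.4 and 27.6, 26.6 and 22.7 in DMSO and tunicamycin at 4 h, and 64.1, 64.3 and 67.1 and 24.2, 22.3 and 25.2 at 24 h. The DMSO 24 h libraries stood alone, all others of OCI-AML3 lying between 18.2 and 27.6 CPM (log2 fold change 1.43 ± 0.099 (SE), adjusted p = 2e-10 in DMSO, log2 fold change -1.45 ± 0.099 (SE), adjusted p = 7.6e-11 in tunicamycin). ACACA, the acetyl-CoA carboxylase that forms malonyl-CoA, differed from it: its change in DMSO (0.07) was not called, and it fell in tunicamycin (log2 fold change -0.83 ± 0.071 (SE), adjusted p = 2.9e-09), from 133 ± 12.1 to 74.7 ± 2.55 CPM (SD, n = 3), below the untreated 121 ± 7.62. FASN, the fatty acid synthase, was at 608, 736 and 671 CPM at 0 h, 611, 938 and 815 in DMSO at 4 h and 1379, 1489 and 1089 in DMSO at 24 h. Its tunicamycin values were 821, 795 and 798 at 4 h, inside the DMSO range, and 466, 354 and 359 at 24 h, below every other OCI-AML3 library (log2 fold change -1.75 ± 0.134 (SE), adjusted p = 5.1e-10). SCD, the stearoyl-CoA desaturase, and the desaturases FADS1 and FADS2 fell by 1.16, 0.61 and 0.78 against DMSO at 24 h. Set against the untreated cells, FADS1 was at 0.03 and FADS2 at 0.60.

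Among the regulators, SREBF1 was at 119, 120.1 and 119 CPM at 0 h, 118, 151 and 137 in DMSO and 149, 151 and 144 in tunicamycin at 4 h, and 188, 216 and 175 and 176, 141 and 138 at 24 h. The ranges at 24 h overlapped, although the gene was called lower (log2 fold change -0.35 ± 0.092 (SE), adjusted p = 0.0032). SREBF2 was at 264, 314 and 291 at 0 h, 291, 317 and 297 in DMSO and 352, 340.4 and 344 in tunicamycin at 4 h, and 587, 543 and 498 and 458, 408 and 385 at 24 h. It was therefore lower than DMSO at 24 h (log2 fold change -0.38 ± 0.076 (SE), adjusted p = 0.00024) yet above the untreated cells in every library (log2 fold change 0.53 ± 0.076 (SE), adjusted p = 3.2e-06). Neither transcript fell as far as their target INSIG1, the retention factor. INSIG1 was at 172, 159.5 and 174 CPM at 0 h, 169, 142 and 148 and 148, 145 and 136 in DMSO and tunicamycin at 4 h, and 754, 575 and 709 and 176, 168 and 194 at 24 h. Of the OCI-AML3 libraries, those in DMSO at 24 h alone lay outside a range of 136 to 194 CPM (log2 fold change 2.15 ± 0.085 (SE), adjusted p = 1.1e-14 for the DMSO rise, log2 fold change -1.92 ± 0.085 (SE), adjusted p = 3.1e-14 for tunicamycin at 24 h, log2 fold change -0.10 ± 0.083 (SE), adjusted p = 0.37 at 4 h).

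INSIG2, the second retention factor, kept apart from INSIG1. It was at 14, 11.8 and 13.5 CPM at 0 h, 13.4, 13.8 and 12.3 and 22.5, 16.1 and 21.3 in DMSO at 4 h and 24 h, and 14.8, 13.9 and 17.4 and 17.9, 21.2 and 22.8 in tunicamycin. At 4 h the tunicamycin libraries lay just above those in DMSO (log2 fold change 0.21 ± 0.127 (SE), adjusted p = 0.2). At 24 h they overlapped (log2 fold change 0.05 ± 0.121 (SE), adjusted p = 0.75), with a 95% interval of the difference from -0.19 to 0.29. SCAP, the escort, was not called in any OCI-AML3 comparison of tunicamycin, DMSO or time, and averaged between 74.5 and 81.4 CPM in the 5 OCI-AML3 groups. STARD4, a soluble carrier that moves sterol between membranes, was the exception in size and direction. It was at 38.5, 27.9 and 37.3 CPM at 0 h, 26.5, 31 and 31.6 in DMSO and 137, 136 and 144 in tunicamycin at 4 h, a 4.67-fold rise (log2 fold change 2.22 ± 0.127 (SE), adjusted p = 2.8e-12). At 24 h it was at 45.8, 49.7 and 42.9 in DMSO and 69.1, 72.2 and 98.2 in tunicamycin (log2 fold change 0.79 ± 0.123 (SE), adjusted p = 1.5e-05), again without overlap. Tunicamycin 24 h replicate 3 was the highest of its group.

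**Figure D3:**
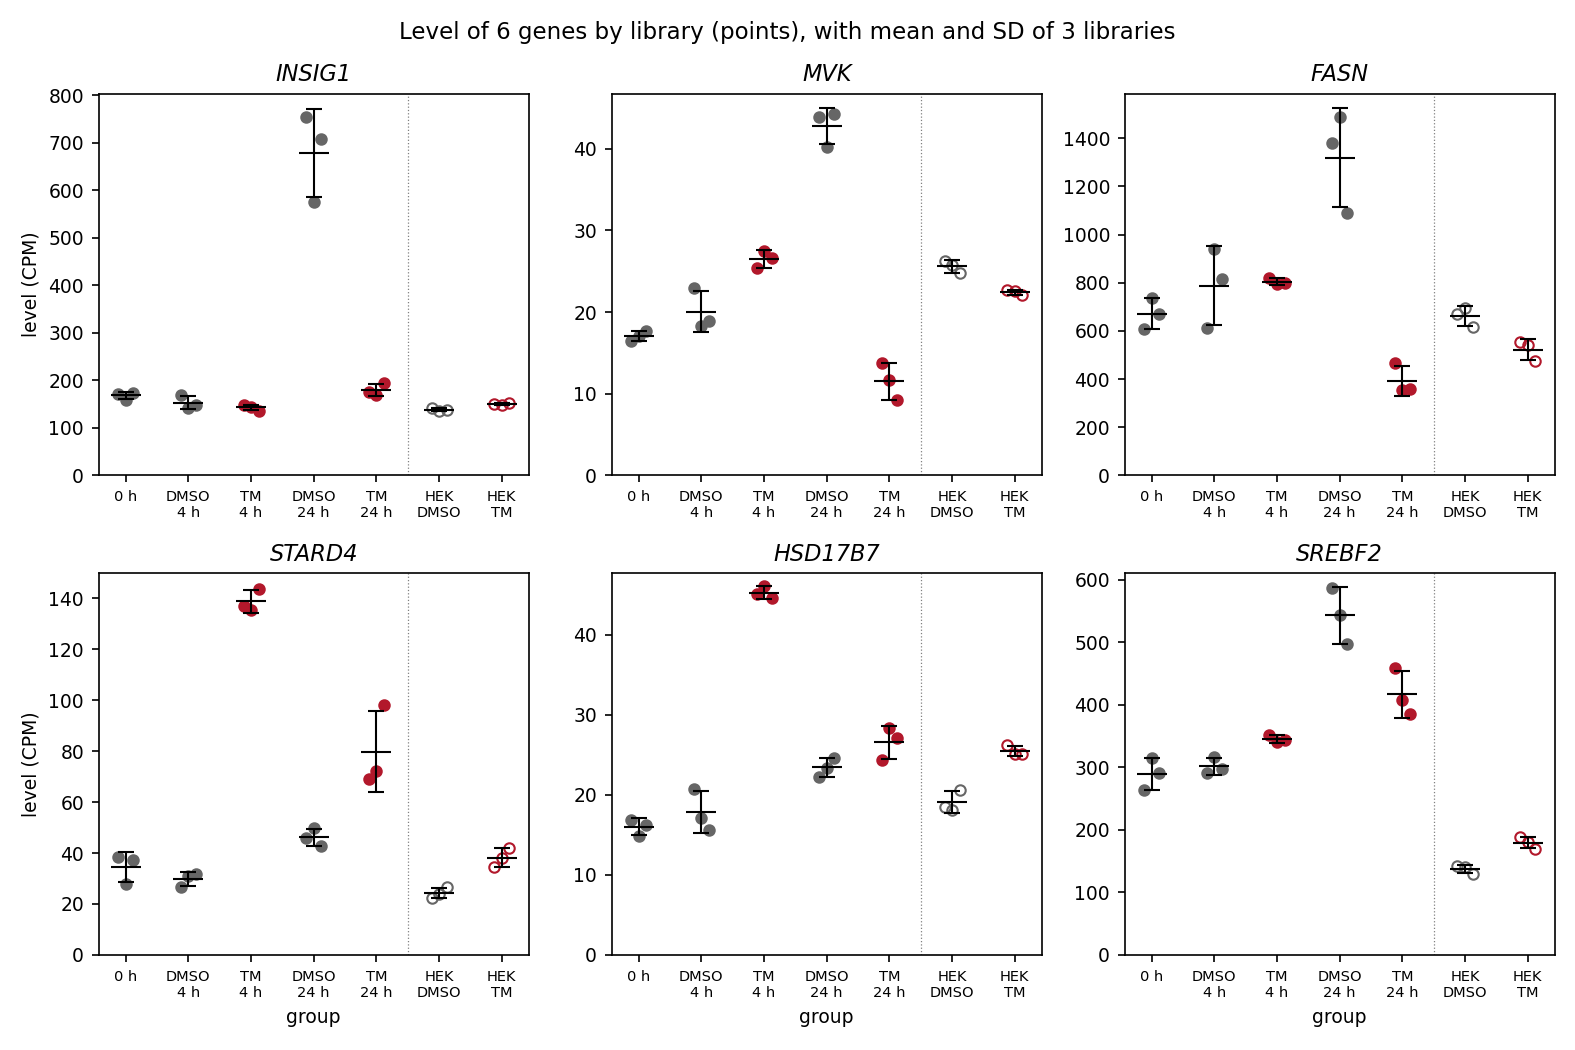
Level in CPM (y axis, from 0) of INSIG1, MVK, FASN, STARD4, HSD17B7 and SREBF2 in each library (points; filled for OCI-AML3, open for HEK293T, red for tunicamycin), with the mean and SD of 3 libraries. INSIG1, MVK and FASN are highest in DMSO at 24 h, while STARD4 and HSD17B7 are highest in tunicamycin at 4 h and SREBF2 in tunicamycin at 24 h lies between DMSO and the untreated cells.

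The effect of tunicamycin against DMSO of the same time differed between 4 h and 24 h for most of the genes. This difference is the change from 4 h to 24 h in tunicamycin minus that in DMSO, so the DMSO rise enters every value. A test of the difference between the 24 h and the 4 h effect called 27 of 31 genes lower and 0 higher, where 20.3% of all genes were lower and 15.1% higher, and 20 of the 31 exceeded a log2 difference of 1, against 2.58% of all genes. No gene was higher at an unadjusted p of 0.05, by limma voom or by DESeq2. MVK had the largest difference (log2 difference -2.31 ± 0.149 (SE), adjusted p = 1.6e-10), followed by FDFT1 (-2.07), HMGCS1 (-1.94) and DHCR7 (-1.92). STARD4 was among them (log2 difference -1.43 ± 0.175 (SE), adjusted p = 2.5e-06), its rise being smaller at 24 h. The genes not called were PMVK, SC5D, SCAP and INSIG2. The medians were -1.50 for sterol genes, -0.94 for fatty acid genes and -0.02 for all genes, and 15 of 18 sterol genes but 3 of 7 fatty acid genes exceeded the log2 difference of 1. Within tunicamycin, from 4 h to 24 h, 17 of the 31 genes fell and 5 rose, where 32% of all genes fell and 27.2% rose. INSIG1, SREBF2, FADS2 and TM7SF2, all among the 27, rose there.

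HEK293T cells given tunicamycin for 24 h were compared with their own DMSO libraries. There, 9 of 31 genes rose and 4 fell, where 12.6% of all genes rose and 13.1% fell. With these 2 groups fitted alone, 15 of 31 rose, the 6 added being PMVK, SQLE, SCD, SCAP, INSIG1 and INSIG2. The shares of all genes given here belong to the fit of all groups, so the 15 are not read against them. In the fit of all groups none exceeded a log2 fold change of 1 in size, against 1.58% of all genes higher and 0.55% lower. The median was 0.05 over the set and -0.01 over all genes. SREBF1 rose most, from 45.7, 47.6 and 44.8 CPM to 84.4, 78.9 and 75.8 (log2 fold change 0.79 ± 0.096 (SE), adjusted p = 1.4e-06). SREBF2 went from 143, 140.4 and 130.0 to 188, 181 and 170.0 (log2 fold change 0.39 ± 0.077 (SE), adjusted p = 0.00067), and STARD4 from 22.4, 24.0 and 26.6 to 34.4, 38.2 and 42.0 (log2 fold change 0.65 ± 0.128 (SE), adjusted p = 0.00061). None of these 3 genes overlapped between the groups. SC5D (0.65), FADS1 (0.61), CYP51A1 (0.43), HSD17B7 (0.42), FADS2 (0.34) and HMGCS1 (0.21) also rose. HMGCS1 went from 97.4, 92.3 and 102 to 111, 113 and 115 CPM, and lost its call when any 1 of 5 HEK293T libraries was left out, with adjusted p up to 0.15, and with library sizes without TMM (0.12) or no filter beyond 1 count (0.15). Of these 9 genes, HMGCS1, CYP51A1, FADS1, FADS2, SREBF1 and SREBF2 were called lower in OCI-AML3 at 24 h, as was SC5D by a call that limma voom and DESeq2 did not give.

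The 4 that fell in HEK293T were FDFT1, ACAT2, ACLY (-0.24) and FDPS. FDFT1 was at 133, 123 and 125 CPM in DMSO and 95.9, 91.9 and 95.2 in tunicamycin (log2 fold change -0.43 ± 0.073 (SE), adjusted p = 0.00013). ACAT2 was at 119.7, 119.9 and 117 and 90.8, 94.5 and 93.7 (log2 fold change -0.35 ± 0.084 (SE), adjusted p = 0.0031), and FDPS at 151, 153 and 142 and 134, 123 and 124 (log2 fold change -0.23 ± 0.078 (SE), adjusted p = 0.034). All of these separated by library, although the FDPS call was lost when any 1 of 4 HEK293T libraries was left out, with adjusted p up to 0.12. FASN, at 672, 696 and 618 and 552, 539 and 473 CPM, missed the threshold (log2 fold change -0.34 ± 0.13 (SE), adjusted p = 0.057) though its libraries did not overlap, and passed it in several alternatives. INSIG1 was at 141, 135 and 138 and 151, 149 and 152 CPM (log2 fold change 0.13 ± 0.083 (SE), adjusted p = 0.29), and MVK at 26.3, 25.8 and 24.7 and 22.7, 22.6 and 22.1 (log2 fold change -0.19 ± 0.1 (SE), adjusted p = 0.18). In both, the libraries separated by group, but the changes missed the threshold, which INSIG1 passed with these groups fitted alone (0.14, adjusted p = 0.012). DHCR7, at 148, 148 and 132 and 144, 156 and 142, had a difference of 0.05 with a 95% interval from -0.12 to 0.22. MVD went from 40.1, 42.3 and 39.5 to 42.0, 39.9 and 35.0. NSDHL went from 54.7, 48.7 and 50.3 to 48.1, 49.4 and 48.6, and IDI1 from 109.8, 104 and 112 to 99.6, 105 and 113. None of these 3 was called, and their ranges overlapped.

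MSMO1 (51.9, 50.7 and 53.0 against 48.7, 51.5 and 56.5 CPM) was not called in HEK293T, nor was ACSS2 (15.5, 18.1 and 15.2 against 13.9, 15 and 14) or INSIG2 (14.5, 14.9 and 16.7 against 17.1, 19.5 and 18.3). The MSMO1 libraries overlapped, whereas those of ACSS2 were lower and those of INSIG2 higher in tunicamycin without overlap. ELOVL6, which did not pass the filter because OCI-AML3 has almost none of it, was at 45.7, 46.4 and 45.9 CPM in the HEK293T DMSO libraries and at 32.2, 34.9 and 34.8 in tunicamycin. Its change there was -0.44 on the log2 scale (adjusted p = 0.0036) when the filter asked for 1 CPM in only 3 libraries. Of the 7 other fatty acid genes, FADS1 and FADS2 rose and ACLY fell in HEK293T. Over all genes tested there, 12.6% rose and 13.1% fell, and no change of this list is read from counts so small.

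The 24 h effect differed between the lines. In OCI-AML3 this effect is taken against DMSO at 24 h, where 28 of the 31 genes had risen from 4 h. That rise therefore enters the differences given here. A test of the HEK293T effect minus the OCI-AML3 effect called 27 of 31 genes higher and 0 lower, where 15.9% of all genes were higher and 10.9% lower. No gene of the set was lower at an unadjusted p of 0.05, by limma voom or by DESeq2. A log2 difference above 1 was found for 20 of the 31, against 2.03% of all genes. INSIG1 differed most (log2 difference 2.05 ± 0.118 (SE), adjusted p = 5.7e-11), then MVK (1.72), HMGCS1 (1.63), DHCR7 (1.62) and MSMO1 (1.62). The medians were 1.17 for sterol genes and 1.22 for fatty acid genes. STARD4 (-0.15), HSD17B7 (0.23), INSIG2 (0.20) and SCAP (0.22) were the 4 not called. For STARD4 the 95% interval of the difference ran from -0.50 to 0.20. No HEK293T library was taken at 0 h or 4 h, so whether this line also gains these transcripts during culture in DMSO was not tested.

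**Figure D4:**
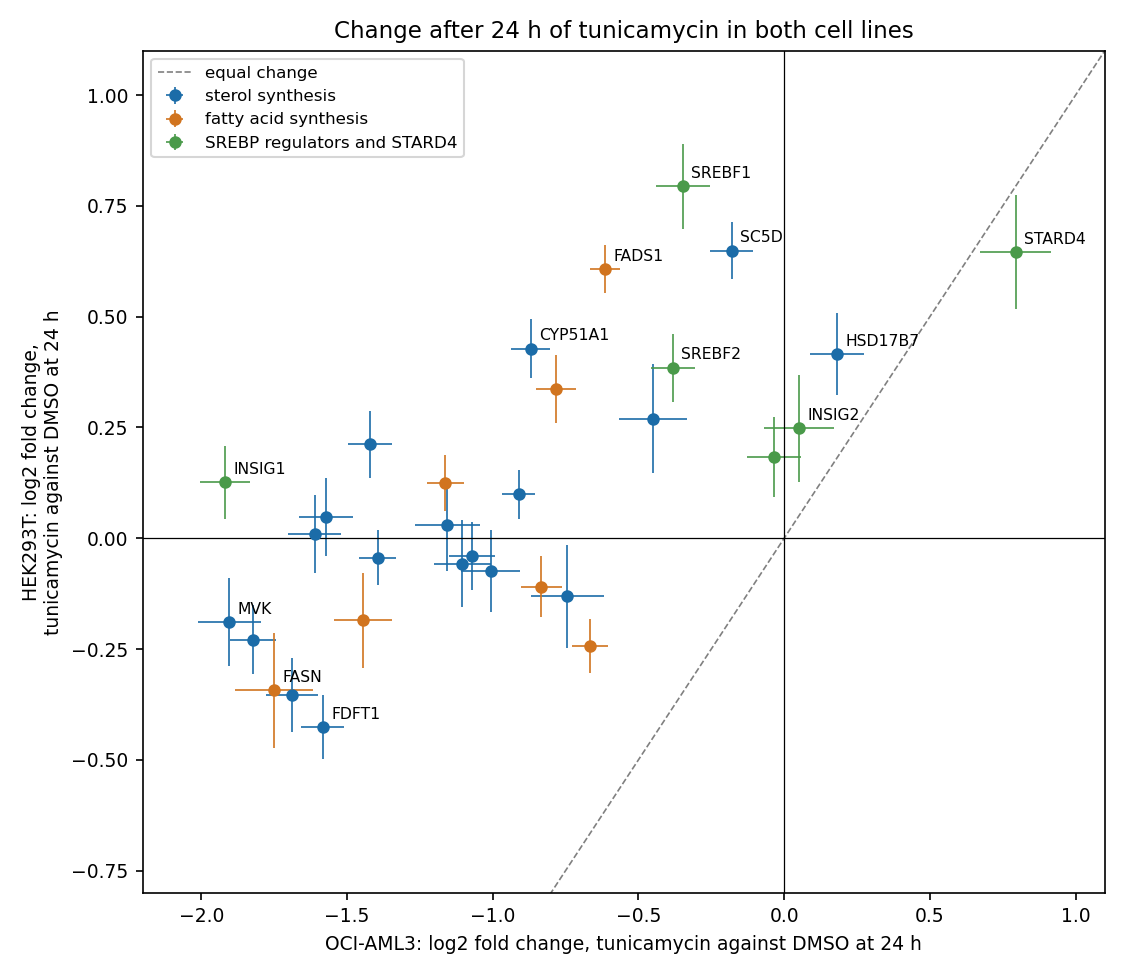
Log2 fold change of each of 31 genes after 24 h of tunicamycin against DMSO in OCI-AML3 (x axis) and in HEK293T (y axis), with bars for standard errors and a dashed line of equal change. Nearly all points lie left of 0 and above the dashed line, between -0.43 and 0.79 on the y axis, and STARD4 lies near the line at the right.

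Without tunicamycin, the lines held different amounts of these transcripts at 24 h. In DMSO, 23 of 31 genes were lower in HEK293T than in OCI-AML3 and 3 were higher, where 42.2% of all genes were lower and 40.5% higher. With a log2 difference below -1 as well, 11 were lower, against 24.9% of all genes. FADS2 was lowest (log2 fold change -4.21 ± 0.081 (SE), adjusted p = 1.7e-22), at 36.1, 35.9 and 32.5 CPM in HEK293T and 641, 676 and 615 in OCI-AML3. FDPS (-2.33), FADS1 (-2.33), INSIG1 (-2.30), SREBF1 (-2.07), ACSS2 (-2.0) and SREBF2 (-1.98) followed. SC5D (1.52), SCAP (0.31) and DHCR7 (0.23) were higher in HEK293T. INSIG1 in HEK293T, at 135 to 141 CPM, was closer to untreated OCI-AML3, at 160 to 174, than to OCI-AML3 in DMSO at 24 h, at 575 to 754. When libraries were scaled by their totals without TMM, the median of all genes moved to 0.33 in this comparison, and 19 genes were then lower. SCD (-0.07, adjusted p = 0.32) and INSIG2 (-0.03, adjusted p = 0.83) lost their calls, and ACAT2 (0.05) and HSD17B7 (0.05) lost theirs with a change of sign. The shares of all genes above come from the fit with TMM and are not set beside the counts without it. Without TMM, 8 genes were higher, the 5 added being ACACA, TM7SF2, NSDHL, EBP and ACLY. The first of these, acetyl-CoA carboxylase, was thus called higher there (0.22, adjusted p = 0.0090) but lower with DESeq2 (-0.16, adjusted p = 0.030), DESeq2 size factors (-0.16, adjusted p = 0.037), no filter beyond 1 count (-0.30, adjusted p = 0.0013) and 1 CPM in 3 libraries (-0.18, adjusted p = 0.024), so no direction is given for it. The DHCR7 call was lost with DESeq2 (adjusted p = 0.060) and both other filters (0.74 and 0.083), among others, and that of SCAP with no filter beyond 1 count (0.26). ACLY was also called higher in HEK293T with limma voom (0.134, adjusted p = 0.040), with a replicate block (0.134, adjusted p = 0.039) and when single libraries were left out.

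Other genes of the pathway were read from 3 lists of 6 to 10 genes. Over all genes tested, 23.5% rose and 27.7% fell at 24 h of tunicamycin in OCI-AML3, 18.5% and 18.9% at 4 h, 12.6% and 13.1% in HEK293T, and 21% and 21.6% from 4 h to 24 h in DMSO. In lists this short, several of the counts lie near those shares, and no change of a list as a whole is read from them. Of 8 genes that process SREBPs or break down INSIG, 4 rose and 0 fell at 24 h of tunicamycin in OCI-AML3 by edgeR (4 in either direction at an unadjusted p of 0.05), none by more than 0.52, the value of MBTPS2, which cuts SREBPs in the Golgi. At 4 h, 0 rose and 3 fell (3 at an unadjusted p of 0.05), SPRING1, a factor needed by the first Golgi protease, being lowest (-0.47). In HEK293T 5 of the 8 rose and 1 fell, and from 4 h to 24 h in DMSO 1 rose and 3 fell. Of 6 genes of the liver X receptors, the sterol-activated factors that drive efflux, 2 rose and 0 fell at 24 h of tunicamycin (2 at an unadjusted p of 0.05): the cholesterol exporters ABCA1 (1.03) and ABCG1 (1.79). At 4 h 1 of the 6 rose and 2 fell, and in HEK293T 0 rose and 1 fell (4 at an unadjusted p of 0.05). In DMSO from 4 h to 24 h all 6 rose, with MYLIP, a ubiquitin ligase for lipoprotein receptors, at 1.26 and ABCG1 at 1.43. Of 10 genes of sterol handling and lipid synthesis, 4 rose and 1 fell at 24 h of tunicamycin, the latter being TMEM97 (-0.92), a sterol-regulated membrane protein. ME1, which makes NADPH for fatty acid synthesis, was higher by 0.74. At 4 h 4 of the 10 rose and 1 fell, and MID1IP1, a partner of acetyl-CoA carboxylase, rose most (1.04). In HEK293T 5 of the 10 rose and 0 fell (7 at an unadjusted p of 0.05). These lists were drawn up with earlier results of the same libraries known.

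Several of the genes share ground with others on the genome (GENCODE 44 annotation, GRCh38), and whether reads were counted by strand is not given in the sources used here. A tested gene on the opposite strand overlaps 13 of the 32, and a tested gene on the same strand overlaps TM7SF2 (VPS51) and FADS2 (FEN1). FADS1 and FADS2, both genes of the set, overlap each other on opposite strands, FADS1 lying within FADS2. Reads of such pairs cannot be told apart where strand was not used. FDPS, at chr1:155308748-155320666 on the plus strand, is overlapped by RUSC1-AS1, which averaged 52.6 CPM in DMSO and 15.5 CPM in tunicamycin at 24 h (-1.76 on the log2 scale), beside -1.82 for FDPS. MVK, at chr12:109573255-109598125 on the plus strand, is overlapped by MMAB, of cobalamin metabolism, which changed by -1.29 at 24 h and 0.32 at 4 h. STARD4, at chr5:111496033-111512590 on the minus strand, went against its partner: STARD4-AS1 changed by -0.45 at 4 h and -0.38 at 24 h, when STARD4 rose. FEN1 changed by -0.56 and VPS51 by -0.17 at 24 h. TCP1, which overlaps ACAT2 on the opposite strand, averaged 589 CPM in DMSO and 455 CPM in tunicamycin in HEK293T (-0.37 on the log2 scale). ACAT2, called lower there, averaged 119 and 93.0 CPM. In OCI-AML3 TCP1 changed by -0.49 at 24 h of tunicamycin, and by -0.42 from 4 h to 24 h in DMSO, where ACAT2 rose. The part of shared reads in the values of these genes was not tested.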

How the data were processed

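Poly-A RNA of 21 libraries (15 OCI-AML3, 6 HEK293T) was sequenced as paired ends, and the authors used STAR for alignment and RSEM for counting, with GRCh38 as the genome. The deposited values are estimated counts per gene, not normalized; the strand setting is not given in the sources used here. They were rounded to whole numbers. The 14012 of 60671 genes that reached 1 CPM in 8 or more libraries were fitted with edgeR 4.0.16 (R 4.3.3, quasi-likelihood, TMM scaling, 1 mean for each of 7 groups), with Benjamini-Hochberg adjustment over all of them and a call at an adjusted p of at most 0.05. Standard errors were taken from the fold change and F statistic. The authors used limma voom, which was run as an alternative (limma 3.58.1), as were DESeq2 1.42.0, other scalings and filters, the compared groups alone, a replicate block and each library left out. The comparison with untreated cells as reference was added after the data were seen.

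Members and lists were chosen with earlier results of these data known. Given library by library are the 14 genes with the largest change among those that passed the adjusted p and a log2 fold change of 1 in a main comparison, or an interaction with an absolute log2 value above 0.5, and SREBF1, SREBF2, INSIG1 and INSIG2 in any case, 17 genes in all. FADS2 and ELOVL6, also given by library, and other genes named were chosen after their values were seen. No pair of libraries held identical values. The scripts were tested on simulated counts. Gene positions come from GENCODE 44, and promoter windows and motifs from RefSeq (GRCh38.p14). Counts of 3 per library were taken as the floor.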

Additional observations from a re-analysis of the deposited data

Results flagged for a closer look

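The effect of tunicamycin in OCI-AML3 differed between 24 h and 4 h for 27 of the 31 genes by a test of the difference itself (an interaction term in the edgeR quasi-likelihood fit, 3 libraries a group, adjusted p at most 0.05 over all 14012 genes), where 20.3% of all genes were lower and 15.1% higher. Each value in brackets is the log2 effect at 24 h minus that at 4 h, and all 27 were below 0. The DMSO rise from 4 h to 24 h enters each of them, and was 2.15 for INSIG1, 1.72 for MSMO1 and 1.43 for ACSS2. Within tunicamycin over that time INSIG1 rose, and MSMO1 and ACSS2 were not called. Among sterol genes the differences were those of MVK (-2.31), FDFT1 (-2.07), HMGCS1 (-1.94), DHCR7 (-1.92), FDPS (-1.90), ACAT2 (-1.85), MSMO1 (-1.80), MVD (-1.78), NSDHL (-1.56), IDI1 (-1.43), LSS (-1.41), CYP51A1 (-1.33), HSD17B7 (-1.17), SQLE (-1.10), EBP (-1.01) and TM7SF2 (-0.66). The fatty acid genes were FASN (-1.78), ACSS2 (-1.53), SCD (-1.20), ACACA (-0.94), FADS2 (-0.79), FADS1 (-0.70) and ACLY (-0.56). Of the regulators and carrier, the differences were those of INSIG1 (-1.82), STARD4 (-1.43), SREBF2 (-0.58) and SREBF1 (-0.47).

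The effect at 24 h differed between HEK293T and OCI-AML3 for 27 genes by the same kind of test, where 15.9% of all genes were higher and 10.9% lower. The values are the log2 effect in HEK293T minus that in OCI-AML3, all above 0. The OCI-AML3 effect is taken against DMSO at 24 h, so the DMSO rise from 4 h to 24 h enters these values too. Among sterol genes the differences were those of MVK (1.72), HMGCS1 (1.63), DHCR7 (1.62), MSMO1 (1.62), FDPS (1.59), LSS (1.35), ACAT2 (1.33), CYP51A1 (1.3), EBP (1.19), FDFT1 (1.16), MVD (1.05), IDI1 (1.03), SQLE (1.01), NSDHL (0.93), SC5D (0.83), PMVK (0.72) and TM7SF2 (0.61). The fatty acid genes were FASN (1.41), SCD (1.29), ACSS2 (1.26), FADS1 (1.22), FADS2 (1.12), ACACA (0.72) and ACLY (0.42). Of the regulators and carrier, the differences were those of INSIG1 (2.05), SREBF1 (1.14) and SREBF2 (0.77). The TM7SF2 call was lost without DMSO 24 h replicate 2 of OCI-AML3 (0.49, adjusted p = 0.053), tunicamycin 24 h replicate 3 of OCI-AML3 (0.46, adjusted p = 0.060) or DMSO replicate 3 of HEK293T (0.47, adjusted p = 0.058). What sets the lines or the times apart was not tested, and the lines also differ in medium.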

How the results depend on the processing

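Over all 11 comparisons, 6546 of 6670 alternatives run on 230 called gene results kept the call and direction, 122 lost the call and 2 changed sign. Those 2 were ACAT2 (0.05) and HSD17B7 (0.05) in HEK293T against OCI-AML3 in DMSO with library sizes without TMM, neither then called. Of 3219 alternatives run on 111 uncalled results, 89 passed the threshold with the sign kept, and 1 passed it with the sign changed, that of ACACA between the lines without TMM (0.22). Genes lower at 4 h of tunicamycin numbered 1 with no filter beyond 1 count and with 1 CPM in 3 libraries (ELOVL6, with 2 to 4 counts in DMSO against 0), and ranged from 0 to 1 over libraries left out (PMVK without DMSO 4 h replicate 3, -0.31). Genes higher at 24 h of tunicamycin numbered 2 with library sizes without TMM and ranged from 1 to 2 over libraries left out, the added gene being HSD17B7. Genes higher in HEK293T numbered 15 when the compared groups were fitted alone, adding PMVK, SQLE, SCD, SCAP, INSIG1 and INSIG2, and FASN was then lower (-0.33, adjusted p = 6.6e-06). Genes lower at 4 h of DMSO than at 0 h ranged from 0 to 1 (MSMO1 without DMSO 4 h replicate 1, -0.45). Genes higher in HEK293T than in OCI-AML3 in DMSO numbered 8 with library sizes without TMM, which moved the median of all genes to 0.33 there and to -0.14 from 4 h to 24 h in DMSO. Shares of all genes are not given for the counts under these alternatives, so those counts are not read as results about the set. The cause of these moves was not tested.

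Over the alternatives, 26 to 29 genes rose in DMSO, 24 to 27 fell at 24 h of tunicamycin, 10 to 14 rose at 4 h, 27 were lower by the time interaction in each, and 26 to 28 higher by the line interaction. ACLY in DMSO was lost with no filter beyond 1 count (0.19, adjusted p = 0.087), the compared groups alone (0.22, adjusted p = 0.053) and library sizes without TMM (0.09). The labels give no shared origin to libraries of 1 number, and in no comparison did every same-numbered pair correlate above 0.1. Deviations of same-numbered libraries correlated at -0.14 to 0.02 at 24 h in OCI-AML3 and 0.04 to 0.12 in HEK293T, where 6 of 6 libraries correlated best with their own number, a hint of pairing from the data and not from the design. With a replicate block, 28 genes rose and 0 fell in DMSO, 12 rose and 0 fell at 4 h and 1 rose and 27 fell at 24 h of tunicamycin, 9 rose and 5 fell in HEK293T (FASN added, -0.34, adjusted p = 0.046), and the interactions gave 27 with time and 27 with line. The block also added ACLY as higher in HEK293T than in OCI-AML3 in DMSO (0.134, adjusted p = 0.039). SC5D was added as higher in DMSO at 24 h than at 0 h (0.172, adjusted p = 0.041). No share of all genes is set beside the counts under the alternatives or with the block. Those counts are therefore not read as results about the set. At 3 counts, 0.137 to 0.231 CPM, depth limits ELOVL6 in OCI-AML3 alone among these genes.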
